A study of Homo sapiens with 15 samples.

Results

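The mitochondrial genome (chrM) of hg38 is a circle of 16569 bp with 435 CpGs, and whole-genome bisulfite sequencing (WGBS) of HCT116, a human colorectal carcinoma line, gave a count of methylated reads and of all reads for every one of them. They were taken as all chrM rows of the 3 deposited count tables, 435 of 29456478 rows, and all 435 are CpGs of the reference. A doxycycline-inducible shRNA against UHRF1 (shUHRF1) was studied in 3 clones (Cl.3, Cl.6 and Cl.9), each the progeny of a single cell, and one against DNMT1 (shDNMT1) in 2 bulk populations (R1 and R2). Baseline cells grew for 14 days without doxycycline, Knockdown cells for 14 days with 10 ng/mL, and Recovery cells had the same treatment and then grew without doxycycline until day 28. This gave 15 libraries, 1 per population and stage, so n was 3 for each shUHRF1 stage and 2 for each shDNMT1 stage. All 15 carry an integrated shRNA cassette, and no library of cells without one was analysed here.

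Mitochondrial DNA is packed without nucleosomes, is present in many copies per cell, and encodes ribosomal RNAs, tRNAs and subunits of the respiratory chain. In the nucleus, DNMT1 copies methylation onto the new DNA strand after replication, and UHRF1 reads histone marks and hemimethylated CpGs and recruits DNMT1. Mammalian mitochondrial DNA is widely described as nearly free of CpG methylation, and unmethylated mitochondrial reads are often used to see how many cytosines a bisulfite reaction left unconverted. A read that keeps C counts as methylated whether the base was methylated or was not converted, and the counts cannot tell these apart. The methylation level (mC) is given below as the percentage of reads that kept C.

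The CpGs that carry the single-site results are shown here on the plus strand of hg38, with the CpG in capitals. The first 6 are among the 10 of highest median mC, and the last is the one at which Cl.6 Baseline stood closest, in points, to the median of the other 14 libraries.
chrM:530-559, CpG at 544, control region: ctaaccccatacccCGaaccaaccaaaccc
chrM:13628-13657, CpG at 13642, MT-ND5: taacaggtcaacctCGcttccccaccctta
chrM:14145-14174, CpG at 14159, MT-ND6: ataacctattccccCGagcaatctcaatta
chrM:12098-12127, CpG at 12112, MT-ND4: ctatccctcaacccCGacatcattaccggg
chrM:3516-3545, CpG at 3530, MT-ND1: ctacatcaccgcccCGaccttagctctcac
chrM:10919-10948, CpG at 10933, MT-ND4: ccaaccttttcctcCGaccccctaacaacc
chrM:2995-3024, CpG at 3009, MT-RNR2: ggatcaggacatccCGatggtgcagccgct

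Depth on chrM was high but very uneven along the molecule. The median over all 435 CpGs was 2502 to 7191 reads per library, against 11 to 21 reads at autosomal CpGs. At least 5 reads in every library were held by 347 CpGs, and at least 100 by 338, while 17 had no read in any library. All 88 CpGs under 5 reads in some library lay in stretches with a near-identical nuclear copy, defined as an alignment of at least 200 bp and 95% identity, which together hold 212 of the 435 CpGs. The longest copy, at chr1:629081-634924, matches chrM:3911-9755 at 98.5% identity. The median depth of the 163 chrM CpGs there was 10 to 37 reads per library, against 3694 to 9818.5 outside it, and 72 of them had 100 reads in every library, against 266 of the other 272. This stretch covers MT-ND2, MT-CO1, MT-CO2, MT-ATP8 and MT-ATP6 and most of MT-CO3, so that 7 of 21 CpGs in MT-ND2 and 18 of 56 in MT-CO1 could be used. These genes encode subunits of complex I, cytochrome c oxidase and the ATP synthase.

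The Cl.6 Baseline library stood apart from the rest on chrM. Its mC over the 347 CpGs was 2.50% (Wilson 95% interval 2.47 to 2.52%), while the other 14 libraries lay between 0.257% and 0.500% with a median of 0.333% and an SD of 0.0890 points. In Cl.3 the levels were 0.424% at Baseline, 0.457% at Knockdown and 0.461% at Recovery. In Cl.6 they were 2.50%, 0.500% and 0.483%, and in Cl.9 0.375%, 0.330% and 0.336%. All stages of Cl.9 thus lay below all stages of Cl.3, which lay below all stages of Cl.6. In the bulk populations the levels were 0.295%, 0.257% and 0.281% in R1, and 0.287%, 0.257% and 0.284% in R2. All 6 bulk libraries lay below all 9 clone libraries, whose lowest was 0.330%. Since every clone carries shUHRF1 and every bulk population shDNMT1, the shRNA and the kind of population cannot be told apart. The intervals cover counting error only, since amplified reads are not independent molecules.

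**Figure D1:**
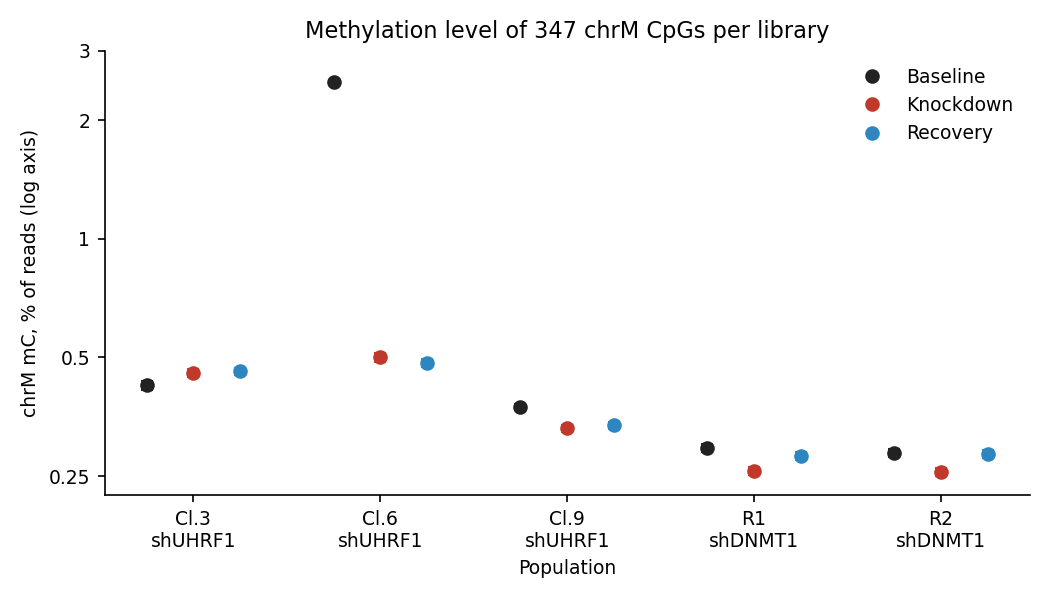
mC of the 347 chrM CpGs that had 5 or more reads throughout the 15 libraries, on a log axis, for the 3 stages of each population; the bars are Wilson 95% intervals and are mostly smaller than the points. Cl.6 Baseline sits at 2.50%, and the other 14 libraries lie between 0.257% and 0.500%.

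Nuclear promoters that are normally unmethylated showed the same library apart. At 2249 CpGs within 200 bp of the start of 73 ribosomal protein genes, which encode the proteins of the cytosolic ribosome, mC was 3.80% (Wilson 95% interval 3.59 to 4.02%) in Cl.6 Baseline. In the other 14 libraries it was 0.625 to 1.33%, with a median of 1.11%. Cl.6 Baseline was thus 3.41 times that median at these promoters and 7.49 times the median of the others on chrM. In points the order was the reverse, with 2.69 above the median at the promoters and 2.16 above it on chrM. The ratio of chrM mC to promoter mC was 0.657 in Cl.6 Baseline and 0.252 to 0.425 in the other libraries. Genome-wide nuclear mC in Cl.6 Baseline was 76.5%, the highest of the 15, against 39.4 to 74.9% in the others. The part of these shared shifts in the chrM result was not tested.

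**Figure D2:**
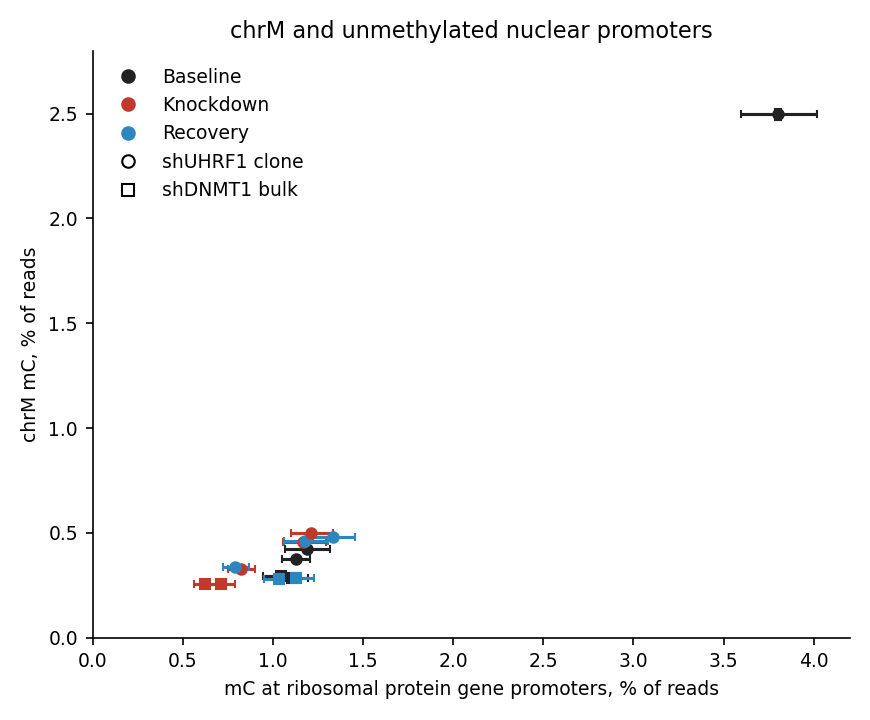
chrM mC against mC at ribosomal protein gene promoters, both in percent of reads, 1 point per library with Wilson 95% intervals; circles are shUHRF1 clones and squares shDNMT1 bulk populations. Cl.6 Baseline lies alone at 3.80% and 2.50%, and the other 14 libraries lie below 1.33% and 0.500% or at these values.

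No chrM CpG read as methylated in all libraries. With mC of at least 10% and at least 100 reads, 0 CpGs passed in all 15 libraries, 1 passed in Cl.6 Baseline, and 0 passed in any other library. At a minimum of 5% there were 7 CpGs, all in Cl.6 Baseline alone. At a minimum of 2%, 236 CpGs with at least 100 reads there passed in Cl.6 Baseline, of which 232 passed there alone. In the other 14 libraries together 4 CpGs reached 2%. Counting CpGs with as few as 5 reads added 5 that reached 10% in some other library, all of them thinly covered.

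The single CpG above 10% was chrM:544 in the control region, the non-coding stretch that holds the promoters and the origin of heavy-strand replication. Its mC in Cl.6 Baseline was 10.3%, from 245 of 2378 reads (Wilson 95% interval 9.14 to 11.6%). In Cl.6 it was 2.61% at Knockdown and 2.12% at Recovery, in Cl.3 2.43%, 1.92% and 2.35% over the 3 stages, and in Cl.9 2.08%, 1.67% and 1.58%. In R1 it was 1.36%, 1.38% and 1.49%, and in R2 1.37%, 1.46% and 1.18%. It was the highest of the 338 CpGs in all 15 libraries, also where the level was low, so its place in the order did not rest on Cl.6 Baseline. Only Cl.6 Baseline lay clearly above the rest, and the bulk libraries were the lowest.

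The next CpGs kept a high place less strictly. chrM:13642 in MT-ND5, a complex I subunit gene, ranked between 2 and 18 over the libraries, with 7.51% in Cl.6 Baseline and 0.580 to 1.84% in the others. chrM:14159 in MT-ND6, the one protein gene encoded on the other strand, ranked between 2 and 12, with 4.58% against 0.601 to 1.68%. chrM:12112 in MT-ND4 ranked between 3 and 14, with 5.43% against 0.594 to 1.52%. In all 15 libraries the Wilson 95% interval of 10 CpGs lay above the level of all chrM CpGs in that library. These were the CpGs at 544, 3530, 10933, 12112, 13642, 13809, 14159 and 14267, which are among the 10 of highest median mC, and those at 10200 and 10202, which were named after their values were seen. No CpG had its interval below that level in all libraries. At chrM:3009 it lay below in every library but R1 Baseline, where its upper end was 0.304% against a level of 0.295%. Of the other CpGs of highest median mC, chrM:8386 in MT-ATP8 ranked between 2 and 203 on 207 to 612 reads, and chrM:13758 in MT-ND5 between 3 and 98.

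The excess in Cl.6 Baseline was spread over nearly all CpGs. It was the highest of the 15 libraries at 336 of the 338 CpGs with 100 reads. The other 2 were chrM:5470, with 1.198% against up to 1.41% in the others, and chrM:9620, with 2.29% against up to 2.51%. Per CpG, Cl.6 Baseline exceeded the median of the other 14 by 1.99 points in the median, with the lowest difference at 0.321 and the highest at 8.68. As a ratio the median was 7.36, with the 10th and 90th percentiles at 5.87 and 9.47, over the 336 CpGs whose median in the others was above 0. CpGs that were higher in the other libraries were also higher in Cl.6 Baseline, with a Spearman rho of 0.717 across 338 CpGs and 0.780 across the 279 with at least 1000 reads. These are descriptions across CpGs of the same molecule, which share reads, depth and local base composition and are not replicates.

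**Figure D3:**
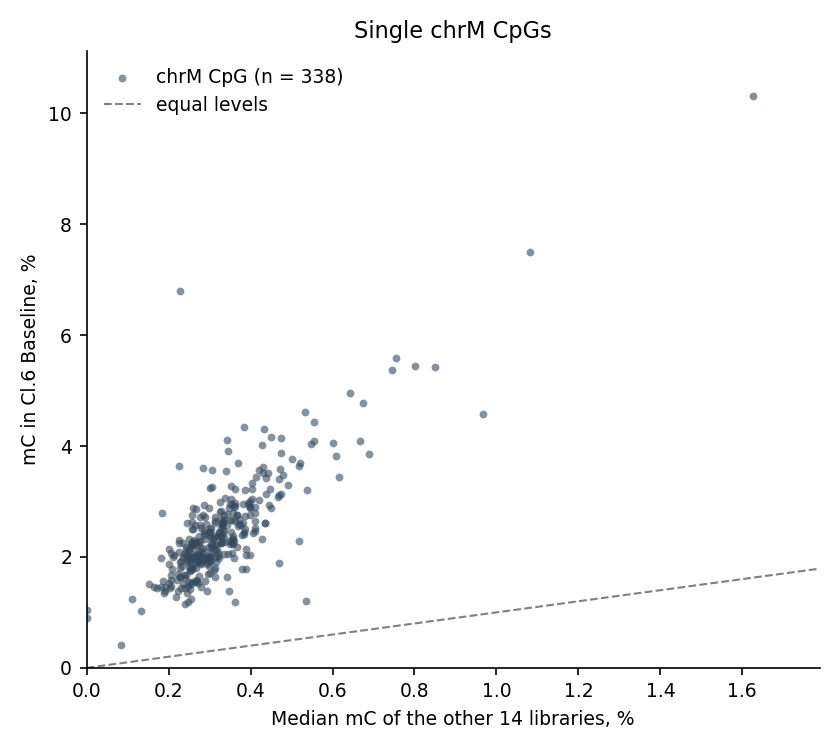
mC in Cl.6 Baseline against the median mC of the other 14 libraries, both in percent, for the 338 chrM CpGs that had 100 or more reads throughout; the dashed line marks equal levels. All points lie above the line, by 0.321 to 8.68 points, and the highest point is chrM:544 at 10.3%.

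The CpGs furthest from the others in Cl.6 Baseline were chrM:544, chrM:8583 in MT-ATP6, chrM:13642, chrM:10933 and chrM:3530. Their differences from the median of the other 14 were 8.68, 6.57, 6.42, 4.83 and 4.64 points. chrM:8583 lies in a stretch with a nuclear copy and had only 103 to 323 reads. The smallest difference in points was that of chrM:3009 in MT-RNR2, the large ribosomal RNA gene. Its mC was 0.405% in Cl.6 Baseline, from 15 of 3702 reads, and 0.0245 to 0.172% in the others. The other 4 of the smallest differences were at chrM:5470, chrM:9444, chrM:1561 and chrM:8580, with 0.661 to 0.897 points. All of these lie in stretches with a nuclear copy, as do 117 of the 338 CpGs.

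Every region of chrM was higher in Cl.6 Baseline than in each of the other 14 libraries. The control region stood at 2.53% against a median of 0.365% in the others. The ribosomal RNA genes MT-RNR1 and MT-RNR2 stood at 2.03% and 2.27%, against 0.289% and 0.285%. Among the protein genes, MT-ND6 was the highest both in Cl.6 Baseline (3.34%) and in the median of the others (0.536%), on 8 CpGs. MT-ND3 followed with 3.03% against 0.411% on 9 CpGs, and MT-ATP8 was the lowest in Cl.6 Baseline with 1.95% on 3 CpGs. The 14 usable CpGs in the 22 tRNA genes stood at 2.31% against 0.336%. The regional medians of the other libraries spanned 0.252 points. The ranges of all 17 regions over the 14 libraries overlapped, but the libraries differ in level, so this does not compare regions within a library.

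**Figure D4:**
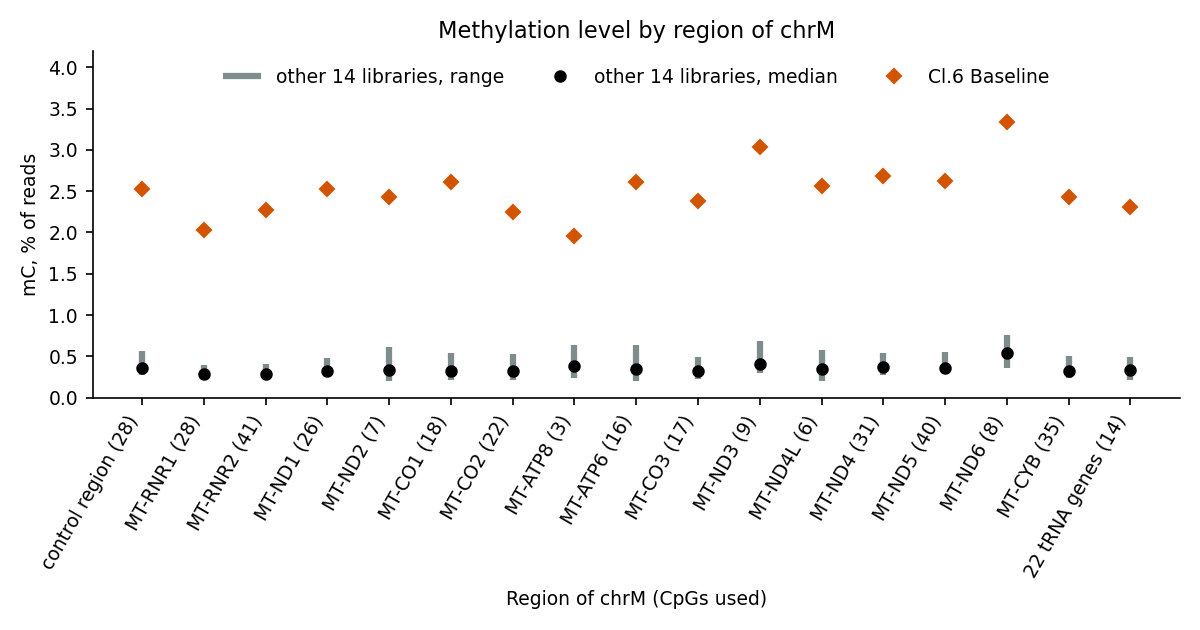
mC in percent of reads by region of chrM, with the number of CpGs used in brackets; grey bars are the range and black points the median of the other 14 libraries, and diamonds are Cl.6 Baseline. The diamonds lie between 1.95% and 3.34%, above every grey bar.

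mC differed little with CpG density on chrM and more with the flanking bases. CpGs with another CpG within less than 20 bp stood at 2.50% in Cl.6 Baseline and 0.330% in the median of the others, and those with the nearest at 20 bp or more stood at 2.49% and 0.341%. In WCGW context, with A or T on both sides, the levels were 2.09% and 0.295% over 80 CpGs. CpGs followed by G were the highest of the flanking-base groups, at 3.04% and 0.377% over 61 CpGs, and those followed by T stood at 2.18% and 0.308% over 60.

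Within populations, chrM mC changed little outside Cl.6. From Baseline to Knockdown it moved by 0.0322 points in Cl.3, -1.996 in Cl.6 and -0.0446 in Cl.9, a mean of -0.670 ± 1.15 points (SD, n = 3). In R1 and R2 it moved by -0.0372 and -0.0300 points, a mean of -0.0336 ± 0.00510 (SD, n = 2). From Baseline to Recovery Cl.3 moved by 0.0362, Cl.6 by -2.01 and Cl.9 by -0.0385 points, while R1 moved by -0.0135 and R2 by -0.00267. The shUHRF1 clones thus moved in both directions. The mean at Knockdown was -0.00623 points without Cl.6, -1.02 without Cl.3 and -0.982 without Cl.9. The exact two-sided sign-flip permutation test gave p = 0.5 for each shRNA at each stage, where the smallest it can give is 0.25 with 3 populations and 0.5 with 2. The difference between the shRNAs at Knockdown gave p = 0.8 in the exact two-sided permutation test of 3 against 2, whose smallest p is 0.1. Over the same step nuclear mC changed by -28.9 to -12.4 points in the clones, while R1 and R2 changed by -33.4 and -34.2 points.

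Ribosomal protein gene promoters moved in the direction of chrM at Knockdown in all populations but Cl.3, where chrM rose by 0.0322 points. The change at these promoters was -0.0173 points in Cl.3, -2.59 in Cl.6 and -0.305 in Cl.9, and -0.331 in R1 and -0.478 in R2. At Recovery they stood -0.00804 and 0.0231 points from Baseline in R1 and R2, closer to it than at Knockdown, as chrM did. In the clones the promoters stood -0.0097 points from Baseline in Cl.3, -2.47 in Cl.6 and -0.336 in Cl.9, so that in Cl.6 both promoters and chrM stood far below Baseline at either stage. From Knockdown to Recovery the promoters came closer to Baseline in Cl.3 and Cl.6 and moved further from it in Cl.9. chrM did the reverse in each clone. In every clone, however, the Wilson 95% intervals at Knockdown and Recovery overlapped, both at the promoters and on chrM. The part of the promoter shifts in the chrM changes was not tested.

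The nuclear copy on chromosome 1 stood at nuclear levels and moved with the knockdowns. Its 159 CpGs held 178 to 355 reads per library. In R1 its mC was 80.4% at Baseline, 42.8% at Knockdown and 86.8% at Recovery, and in R2 it was 82.6%, 44.2% and 88.2%. In Cl.6 it was 88.5%, 74.9% and 79.6%, in Cl.3 87.3%, 68.6% and 74.2%, and in Cl.9 77.4%, 55.0% and 58.0%. The copy was thus lower at Knockdown in all 5 populations, with a mean change of -18.3 ± 4.46 points (SD, n = 3) in the clones and -38.0 ± 0.586 points (SD, n = 2) in the bulk populations. The change was larger in both bulk populations than in every clone, with p = 0.1 in the exact two-sided permutation test, the smallest it can give. The chrM CpGs that lie in nuclear copies stood at 0.226 to 0.462% in the other 14 libraries and those outside them at 0.263 to 0.513%. The first group pools the reads of all stretches with a copy, so the deeper stretches weigh most. The level of the chrM CpGs that match chromosome 1 was not taken separately. Both groups lay far below the level of the chromosome 1 copy.

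Tested one at a time, chrM CpGs differed from Baseline in numbers in Cl.6 and hardly elsewhere. Each CpG with at least 5 reads was compared between 2 libraries with Fisher's exact test, adjusted over all CpGs of the genome (Benjamini-Hochberg, adjusted p under 0.05), which compares these libraries and not the conditions. In Cl.6 290 of 356 chrM CpGs were lower at Knockdown, where 6.47% of all CpGs were called, and 285 of 352 at Recovery, where 1.1% were (1.09% as lower). In Cl.3, 0 of 356 were called at Knockdown (1.01% of all CpGs) and 0 of 357 at Recovery (0.202%). At an unadjusted p under 0.05 the Cl.3 counts were 15 and 12, for which no share over all CpGs was counted. In Cl.9 9 of 356 were called at Knockdown, 8 of them lower (43.7% of all CpGs), and 4 of 359 at Recovery (20.6%). In R1 11 of 357 were called at Knockdown, 10 of them lower (44.3%), and in R2 14 of 356, all lower (54.1%). At Recovery 0 were called in either, with 0% of all CpGs called. There were 10 and 9 chrM CpGs at an unadjusted p under 0.05, again without a share over all CpGs. The share of chrM CpGs called was thus far above the background in Cl.6 and far below it in Cl.9 and the bulk populations at Knockdown. The depth on chrM is far above that of the nucleus, so that much smaller changes could be called there. chrM CpGs also started near the floor, with a median over CpGs at Baseline of 0.345% in Cl.9, 0.270% in R1 and 0.266% in R2. They had little room to fall, so the low share called does not compare their loss with that of nuclear CpGs.

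None of the called CpGs moved by 10 points or more. With at least 100 reads, only chrM:544 in Cl.6 Baseline started high enough to fall that far. In Cl.6 the median change over the chrM CpGs tested was -1.80 points at Knockdown and -1.88 points at Recovery. In the other populations the median at Knockdown was 0.0169 points in Cl.3, -0.0342 in Cl.9, -0.0330 in R1 and -0.0203 in R2. The highest Baseline level among the CpGs called in these populations was 0.953%, at chrM:10933 in Cl.9, where Knockdown stood at 0.500%. At chrM:544 in Cl.6 the fall was 7.69 points at Knockdown (adjusted p = 6.26e-20, Fisher's exact test) and 8.18 points at Recovery (adjusted p = 3.17e-29). The same CpG moved by -0.504 points in Cl.3 and -0.410 points in Cl.9 at Knockdown, by 0.0139 in R1 and by 0.0853 in R2, with adjusted p of 0.190 or more in these 4 (Fisher's exact test). The most negative mean changes over the 5 populations were at 544, 8583, 13642, 6173 and 6181, and at each of them Cl.6 held the largest change. The positive mean changes were 0.329 points at chrM:9620 in MT-CO3, 0.133 at chrM:8580 in MT-ATP6 and 0.0467 at chrM:5470 in MT-ND2, and none of these CpGs was called in any population.

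A fit across the whole genome placed chrM beside nuclear windows. Methylated and unmethylated counts of 100 kb nuclear windows, of 17 windows of 1 kb on chrM and of chrM as a whole were fitted together with edgeR's quasi-likelihood test, with population as a block. In shUHRF1, whole chrM changed at Knockdown by -0.80 on the log2 scale, for methylated over unmethylated reads (SE 0.15, adjusted p = 1.33e-07), and 16 of 17 windows were lower. Of all windows 99.9% were called there, and the median nuclear change was -1.52. At Recovery the change was -0.80 (SE 0.15, adjusted p = 2.44e-07), with 16 of 17 windows lower and 99.5% of all windows called. The shUHRF1 calls on chrM rested on Cl.6. As a log2 ratio of mC, the change at Knockdown was 0.11 in Cl.3, -2.32 in Cl.6 and -0.18 in Cl.9 (SD 1.32, n = 3). The SE of the fit draws on the spread over all windows and is not this spread between clones. Without Cl.6 the change in the fit was -0.04 at Knockdown (adjusted p = 0.372) and -0.02 at Recovery (adjusted p = 0.651). In that fit 0 of 17 windows were called at either stage, where 99.8% and 94.6% of all windows were. Without the block the shUHRF1 change at Knockdown was -0.75 (adjusted p = 0.246), with 8 of 17 windows lower and 99.5% of all windows called. At Recovery it was -0.76 (adjusted p = 0.247), with 3 of 17 windows lower and 66.8% of all windows called.

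The 16 windows that passed in shUHRF1 at Knockdown changed by -0.70 to -1.07 on the log2 scale. Differences between windows were not tested. The window that did not pass, chrM:5001-6000, changed by -0.55 (SE 0.43, adjusted p = 0.197) and lies inside the stretch copied on chromosome 1. In shDNMT1, whole chrM changed by -0.18 at Knockdown (SE 0.18, adjusted p = 0.325) and by -0.04 at Recovery (SE 0.18, adjusted p = 1.00 after rounding), and 0 of 17 windows passed at either stage, also at an unadjusted p under 0.05. Of all windows 99.9% were called in shDNMT1 at Knockdown, with a median nuclear change of -2.38, and 0.00351% at Recovery. Without Cl.6, whose spread entered the common fit, the same shDNMT1 change of -0.18 at Knockdown had an SE of 0.04 and adjusted p = 3.13e-05. In that fit 0 of 17 windows were called in shDNMT1 at Knockdown, where 99.9% of all windows were. Its SE also draws on the spread over all windows and not on that between R1 and R2 alone. The Knockdown effect of shUHRF1 relative to that of shDNMT1 was -0.62 for whole chrM (SE 0.23, adjusted p = 0.0149), with 10 of 17 windows lower, where 64.2% of all windows were called. The 0.0386% of all windows called lower were these 10 and whole chrM, with no nuclear window among them. Without Cl.6 the difference was 0.14, in the opposite direction (adjusted p = 0.0485), with 0 of 17 windows called, where 43.1% of all windows were. The call was lost without Cl.9 (adjusted p = 0.0838), where 95.3% of all windows were called, and with limma (0.0626), where 65.1% were. It was also lost without the block (0.701), but there 0% of all windows were called. Without R1 the difference was -0.64, and without R2 it was -0.60. Each of those fits holds a lone bulk population, so only the size is given and no call is claimed. The levels behind the shDNMT1 change were 0.295% and 0.257% in R1 and 0.287% and 0.257% in R2.

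The share of reads on chrM, a measure of how much mitochondrial DNA was sequenced beside nuclear DNA, showed no common change. In Cl.3 it was 0.481% at Baseline, 0.521% at Knockdown and 0.530% at Recovery. In Cl.6 it was 0.391%, 0.301% and 0.368%, and in Cl.9 0.516%, 0.422% and 0.445%. The share was thus higher than at Baseline in Cl.3 and lower in the other clones. In R1 it was 0.535%, 0.521% and 0.511%, and in R2 0.518%, 0.524% and 0.591%. The mean log2 change at Knockdown was -0.18 ± 0.26 (SD, n = 3) in shUHRF1 and -0.01 ± 0.04 (SD, n = 2) in shDNMT1, with p = 0.5 and p = 1 in the exact two-sided sign-flip permutation test. In shUHRF1 it was -0.33 without Cl.3 and -0.087 without Cl.6. The difference between the shRNAs gave p = 0.4 in the exact two-sided permutation test. Cl.6 held the 3 lowest shares of all 15 libraries, and Cl.6 Baseline, with its high mC, was not the lowest of them. At Baseline the clones averaged 0.463% and the bulk populations 0.526%, with p = 0.2 in the exact permutation test. The share counts reads at CpGs only, and in bulk DNA fewer mitochondrial genomes per cell cannot be told apart from their less complete extraction or alignment.

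**Figure D5:**
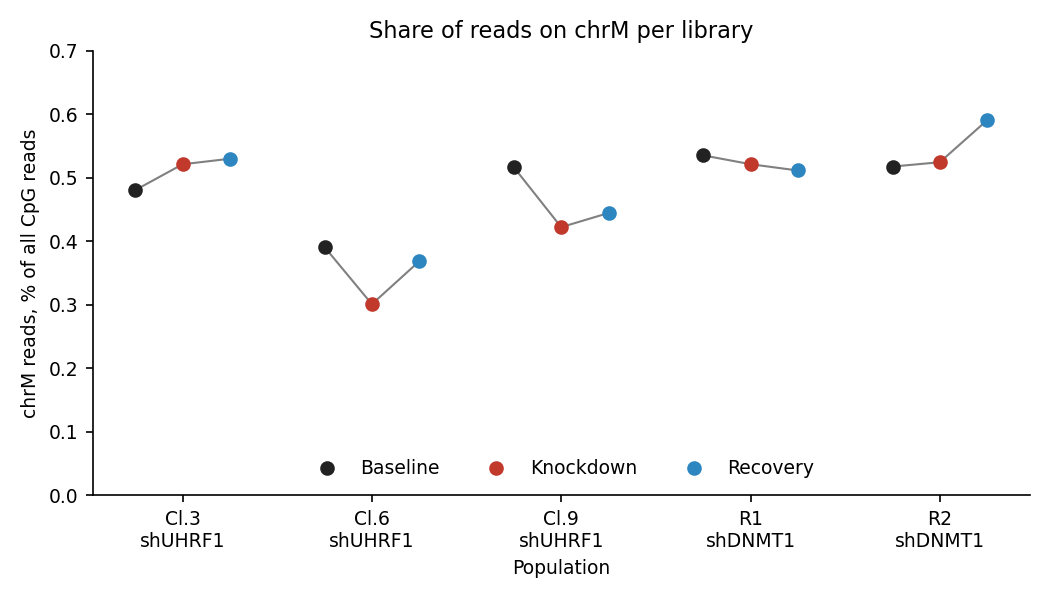
Reads at chrM CpGs as a percentage of reads at all CpGs, 1 point per library, with lines joining the 3 stages of a population. The shares lie between 0.301% and 0.591%, with the 3 Cl.6 libraries lowest.

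The deposited domain lists, 1 per library, also treated Cl.6 Baseline differently. All 15 lists name chrM:33-16565 an unmethylated region (UMR). The list of Cl.6 Baseline alone also names chrM:1-16569 a partially methylated domain (PMD), a class of long nuclear stretches of intermediate and variable methylation. No list has a highly methylated domain or a low-methylated region on chrM. At the 2.50% measured over its CpGs, chrM in this library remained far below the 76.5% of its nucleus.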

How the data were processed

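Cells of 15 HCT116 libraries were profiled by WGBS. Per the labels and the methods, bisulfite-converted DNA was sequenced and aligned to hg38 with the Meth10X pipeline, and the authors deposited raw counts per CpG, the reads that kept C and all reads, with both strands summed. How duplicates and reads with several possible places were treated is not given in the sources used here. Domain lists (MethylSeekR, bedtools 2.25.0) hold positions and classes of the authors' domains. A spike of unmethylated lambda DNA was not analysed here.

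The members and lists were chosen with earlier results of these data known. mC was pooled over chrM CpGs that had 5 or more reads throughout, and single CpGs needed 100. Total reads at CpGs were 317670080 to 593644411 per library. Nuclear copies were found with BLAST 2.17.0 (word size 16). The 10 CpGs of highest median mC, the 5 furthest above and the 5 closest to or below the other libraries in Cl.6 Baseline, and the 5 largest falls and rises at Knockdown were named, with all regions. Each population was compared with its own Baseline. Windows holding 5 or more CpGs, and 50 reads throughout the libraries (28500), were tested with edgeR 4.0.16 (quasi-likelihood, Benjamini-Hochberg) in R 4.3.3, where whole chrM overlaps its own windows. Scripts were tested on simulated data. Alternatives were other read minimums, weights, thresholds and totals, fits with limma 3.58.1 or without the block, and leaving out each population. The block rests on the labels, which put the 3 stages of a population together. Deviations from the group mean over 28482 nuclear windows correlated by 0.479 to 0.822 between stages of a clone and by 0.0295 and 0.0796 in the bulk populations. R1 and R2 agree within sampling noise on chrM but differed over nuclear windows (chi-square of 3.98 to 7.15 per window), and were kept as 2 samples. The clones were isolated separately from single cells. The sources used here do not say whether R1 and R2 came from separate transductions, so the spread between them may be technical.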

Additional observations from a re-analysis of the deposited data

Results flagged for a closer look

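The Knockdown effect on chrM differed between the shRNAs in the fit across all windows. Whole chrM changed by -0.62 on the log2 scale in shUHRF1 relative to shDNMT1 (SE 0.23, adjusted p = 0.0149, edgeR's quasi-likelihood test), and 10 of 17 windows of 1 kb were lower, where 64.2% of all windows were called in either direction. The 0.0386% called lower were these 10 and whole chrM, with no nuclear window among them. As a log2 ratio of mC, the change was more negative than in both bulk populations (-0.19 in R1 and -0.16 in R2) in 1 of 3 clones, Cl.6 with -2.32, while Cl.9 stood at -0.18 and Cl.3 at 0.11. The SE of the fit draws on the spread over all windows and is not this spread between clones. Without Cl.6 the difference was 0.14 in the opposite direction (adjusted p = 0.0485), with 0 of 17 windows called, where 43.1% of all windows were. The call was lost without Cl.9 (adjusted p = 0.0838), where 95.3% of all windows were called, and with limma (0.0626), where 65.1% were. It was also lost without the population block (0.701), but there 0% of all windows were called. Without R1 the difference was -0.64, and without R2 it was -0.60. Each of those fits holds a lone bulk population, so only the size is given and no call is claimed. Ribosomal protein gene promoters fell by 2.59 points in Cl.6 at Knockdown, and their part in the result was not tested. No group held 4 or more libraries, so single libraries were not compared with their group by a test for outlying values.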

How the results depend on the processing

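The results on chrM mC and read share kept their direction under other weights, read minimums and totals, with the exceptions given here. The 34 results had 181 alternative values, of which 140 were classed as unchanged. For mC changes and read share this meant the same direction only, with no threshold applied. For whole chrM in the fit it also meant the same side of the threshold. Counts had to stay within 1.5 times the main count, and the Cl.6 Baseline excess within the SD of the other 14 libraries. With an unweighted mean over CpGs the shDNMT1 change at Recovery was 0.00210 points. With the median depth of chrM over that of autosomal CpGs the log2 read-share change of shDNMT1 at Knockdown was 0.0193. Leaving out each population in turn, that change ranged from -0.0380 to 0.0189, the shUHRF1 share change at Knockdown from -0.334 (without Cl.3) to -0.0866 (without Cl.6), the shUHRF1 share change at Recovery from -0.150 to 0.0282, the shDNMT1 share change at Recovery from -0.0657 to 0.190, and the difference between the shRNAs in mC at Knockdown from -0.987 to 0.0274 points, the last without Cl.6. The Cl.6 Baseline excess of 2.16 points over the median of the other libraries was 2.09 to 2.20 points under the alternatives, which were chosen after seeing the data.

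Without the block that pairs the stages of a population, whole chrM changed in shUHRF1 by -0.75 at Knockdown (adjusted p = 0.246, 8 of 17 windows called) and by -0.76 at Recovery (adjusted p = 0.247, 3 windows). Of all windows 99.5% and 66.8% were called at these stages. The difference between the shRNAs was -0.57 (adjusted p = 0.701, 0 windows), where 0% of all windows were called. No other call changed without the block. With limma in place of edgeR that difference was -0.63 (adjusted p = 0.0626, 6 windows), where 65.1% of all windows were called. Leaving out each population in turn, whole chrM in shUHRF1 ranged from -1.27 to -0.0381 at Knockdown and from -1.28 to -0.0193 at Recovery, with 0 to 17 windows called in each. Both ends moved the value by over 1.5 times, the lower one without Cl.3 and the upper one, where the call was lost, without Cl.6. Over these fits 99.8 to 100% of all windows, after rounding, were called at Knockdown and 94.6 to 99.8% at Recovery. The shDNMT1 change at Knockdown ranged from -0.20 to -0.16. Without Cl.6 whole chrM was called there (-0.18, adjusted p = 3.13e-05, edgeR's quasi-likelihood test), but 0 of 17 windows were. Without Cl.3, and also without Cl.9, 1 window was called. In each of these fits 99.9% of all windows were called. The difference between the shRNAs ranged from -1.09 without Cl.3 to 0.14 without Cl.6. Without Cl.3 16 of 17 windows were called and without Cl.6 0, where 60.5% and 43.1% of all windows were. For whole chrM the difference was called in the opposite direction without Cl.6. It was not called without Cl.9 (adjusted p = 0.0838, edgeR's quasi-likelihood test), where 16 of 17 windows and 95.3% of all windows were. The difference was -0.64 without R1 and -0.60 without R2. Without R1 or R2 the lone bulk population is assumed to vary like the clones, so only the size is given and no call is claimed. The cause was not tested in any of these.

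A minimum change of 10 points left 0 chrM CpGs called in every comparison. The count of CpGs read as methylated in Cl.6 Baseline alone was 7 at a minimum mC of 5%, 232 at 2%, a minimum chosen after seeing the data, and 0 at 20%. In at least one other library it was 4 at 2% and 100 reads, and 5 at 10% and 5 reads. With 2 or 3 populations per shRNA the sign-flip test could not pass 0.05, whatever the depth.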
